A study of Mus musculus with 4 samples.

Results

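The genes described here sense foreign or misplaced nucleic acids inside cells, together with relatives of the PYHIN family. They were chosen by name, with earlier results of these data known, as Zbp1, Ifi203, Ifi204, Ifi205, Mnda, Aim2, Ifih1, Dhx58, Mavs and Tlr3. Of these 10 genes, 8 had a probe set listed for that gene alone, with 1 probe set each, out of 22180 genes measured that way. Ifi203 was listed only on a probe set shared with other genes. Mnda was not listed under that name, and the RefSeq table gives it as an older name of Ifi211, which also had no probe set of its own. Expression was measured on 4 Affymetrix arrays of total RNA from LSK cells, the marrow fraction without lineage markers but with Sca1 and c-Kit, in which blood stem cells and early progenitors are enriched. The study asked which genes differ in these cells when SRC-3, a transcriptional coactivator encoded by Ncoa3, is missing. Both groups were sorted by flow cytometry from the marrow of male mice aged 8 weeks, with 2 samples from wild-type (WT) mice and 2 from SRC-3 knockout (KO) mice. The labels give neither the allele, the strain nor the number of mice behind a sample, so the p-values measure the spread between these samples, part of which may come from handling of the samples rather than from the mice.

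Cells detect nucleic acids with receptors that each read a different form. IFIH1 (MDA5) binds long double-stranded RNA in the cytosol and signals through MAVS, an adaptor on the mitochondrial membrane, while DHX58 (LGP2) is a related helicase without a signalling domain that tunes this pathway. TLR3 reads double-stranded RNA in endosomes, ZBP1 reads Z-form nucleic acids and can trigger necroptosis through RIPK3 and MLKL, and AIM2, a PYHIN protein, assembles an inflammasome on cytosolic DNA. The mouse PYHIN genes lie side by side in one cluster, and many of the sensors are themselves induced by interferon.

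All values are on the log2 scale of the deposited table, on which a difference of 1 is a doubling. Values are given for each of the 2 arrays of a group, and the error of a difference is the moderated standard error (SE) from limma. A gene is said to have risen or fallen where its Benjamini-Hochberg adjusted p over all 23521 single-gene probe sets was under 0.05. A looser rule asked for a 1.5-fold or larger difference together with an unadjusted p under 0.01. Ncoa3, the targeted gene, was at 7.76 and 7.05 on the WT arrays and at 5.35 and 5.09 on the KO arrays. Levels of different genes are not compared with each other, because each probe set has its own response.

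SRC-3 knockout LSK cells had higher levels of Zbp1 and Ifi204, which rose 5.20-fold and 8.52-fold. Of the 8 measured members these 2 rose and 0 fell in limma, where 0.323% of all probe sets rose and 0.0893% fell. At an unadjusted p under 0.05, 5 members were higher and 0 lower, against 10.4% and 7% of all probe sets. By the looser rule 5 members were higher, Ifi205, Ifih1 and Dhx58 being the others, and 0 were lower, where 4.06% and 2.21% of all probe sets passed it in each direction. The median difference over the 8 members was 0.82, and that over all genes with 1 probe set each was -0.0010. Both KO arrays lay above both WT arrays for 5 members, against 25.1% of all probe sets, and below them for 2 members, against 22.9%. Aim2, Mavs and Tlr3 did not pass either rule. Because the members were chosen with earlier results of these data known, these counts and shares describe them and do not test them as a set.

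**Figure D1:**
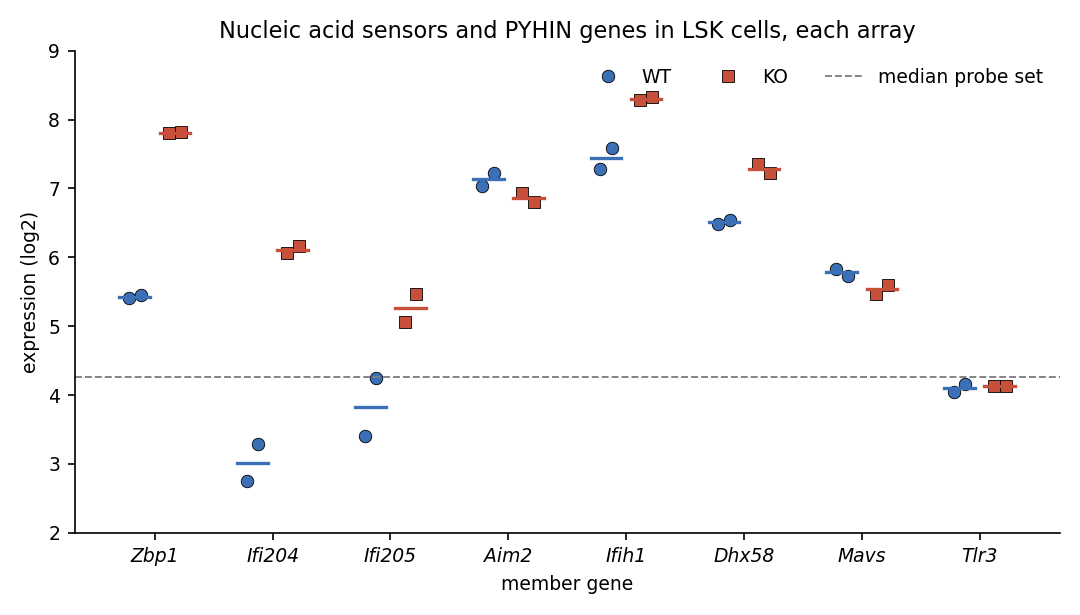
The log2 expression of each of the 8 measured members on the 2 WT arrays (circles) and the 2 KO arrays (squares), with short lines at group means and a dashed line at the median probe set. Zbp1, Ifi204, Ifi205, Ifih1 and Dhx58 have both KO arrays above both WT arrays, while the arrays of Tlr3 overlap.

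Zbp1 (gene identifier 58203, probe set 17395079), the sensor of Z-form nucleic acids, was at 5.42 and 5.45 on the WT arrays and at 7.81 on both KO arrays. The arrays within each group nearly coincided, and the gap between the groups was 2.36. The difference was 2.38 ± 0.17 (SE), a 5.20-fold rise with a 95% interval of 3.93 to 6.88 (limma adjusted p = 0.0085). It was the probe set with rank 8 by p among all 23521. Leaving out either KO array left the difference at 2.38 in each case, but ended the call (limma adjusted p = 0.495 without KO replicate 1 and 0.306 without KO replicate 2). Over all alternatives the limma adjusted p of Zbp1 ran from 0.0028 to 0.495.

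Of the genes that act with ZBP1 in necroptosis, 2 were looked up after the data were seen. Ripk3, the kinase that ZBP1 engages, was at 7.39 and 7.13 in WT and at 7.45 and 7.42 in KO. Mlkl, the pore-forming effector downstream, was at 7.97 and 8.02 in WT and at 8.60 and 8.47 in KO. Both KO arrays lay above both WT arrays for each gene, as they did for 25.1% of all probe sets, and neither passed the test. For Ripk3 the gap between the groups was 0.03, while its WT arrays differed by 0.26. The difference was 0.17 ± 0.18 for Ripk3 and 0.54 ± 0.16 for Mlkl (SE, limma adjusted p = 0.685 and 0.166).

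Ifi204 (gene identifier 15951, probe set 17230045), a PYHIN gene whose protein binds DNA, was the most changed member. It was at 2.76 and 3.29 on the WT arrays, below the median probe set at 4.26, and at 6.06 and 6.16 on the KO arrays, above it. The difference was 3.09 ± 0.22 (SE), an 8.52-fold rise with a 95% interval of 5.87 to 12.4 (limma adjusted p = 0.0085). Because values of dim probe sets are compressed on this kind of array, the fold may understate the change. Without KO replicate 1 the limma adjusted p was 0.36, without KO replicate 2 it was 0.256, and over all 41345 probe sets of the table it was 0.052, in a range over the alternatives of 0.0015 to 0.36. The difference itself ran from 2.83 to 3.36.

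Ifi205 (gene identifier 226695, probe set 17230111), another PYHIN gene of the cluster, was at 3.41 and 4.25 in WT and at 5.06 and 5.47 in KO. Both KO arrays were above both WT arrays, and the WT arrays differed from each other by 0.84, slightly more than the gap of 0.81 between the groups. The difference of 1.44 ± 0.31 (SE), or 2.70-fold, passed the looser rule but not the adjusted threshold (limma adjusted p = 0.104, 95% interval 1.62-fold to 4.51-fold). It passed the adjusted threshold in 3 of 11 alternatives. These were the replicate number as a block (limma adjusted p = 0.0423), arrays centred on their medians (0.0432) and the fit without WT replicate 2 (0.0214, difference 1.86), in which the spread comes from the KO arrays alone. Over the alternatives that p ran from 0.0214 to 0.719.

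Aim2 (gene identifier 383619, probe set 17219643), the DNA sensor of the inflammasome, was not higher in KO. It was at 7.03 and 7.23 in WT and at 6.93 and 6.81 in KO, so that both KO arrays lay below both WT arrays by a gap of 0.10. The difference of -0.26 ± 0.18 (SE) did not pass the test (limma adjusted p = 0.51), and its 95% interval of -0.69 to 0.16 does not reach the differences measured for Ifi204 and Ifi205. The difference between these genes was itself not tested.

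The other PYHIN genes, listed by family, gave a mixed picture along the same cluster. Of 7 measured, 0 rose and 0 fell past the limma threshold, all 7 had a higher mean in KO, and their median difference was 0.47. By the looser rule 1 was higher and 0 were lower, where 4.07% of all genes with 1 probe set each were higher. At an unadjusted p under 0.05, 2 were higher, Ifi213 and Ifi209, and 0 lower, where 10.4% of all genes with 1 probe set each were higher and 6.95% lower. Ifi213 was at 3.16 and 3.58 in WT and at 4.62 and 4.20 in KO, a difference of 1.04 ± 0.23 (SE, limma adjusted p = 0.11). Ifi209 was at 7.77 and 8.73 in WT and at 9.25 and 9.22 in KO, a difference of 0.98 ± 0.30 (SE, limma adjusted p = 0.18). The difference was 0.67 ± 0.52 for Ifi214 and 0.47 ± 0.25 for Ifi207 (SE), and the arrays of the groups overlapped for both. Ifi208, Mndal and Ifi202b had differences of 0.11, 0.12 and 0.01. PYHIN genes resemble each other closely, and whether a probe set also picks up a neighbouring copy was not tested.

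**Figure D2:**
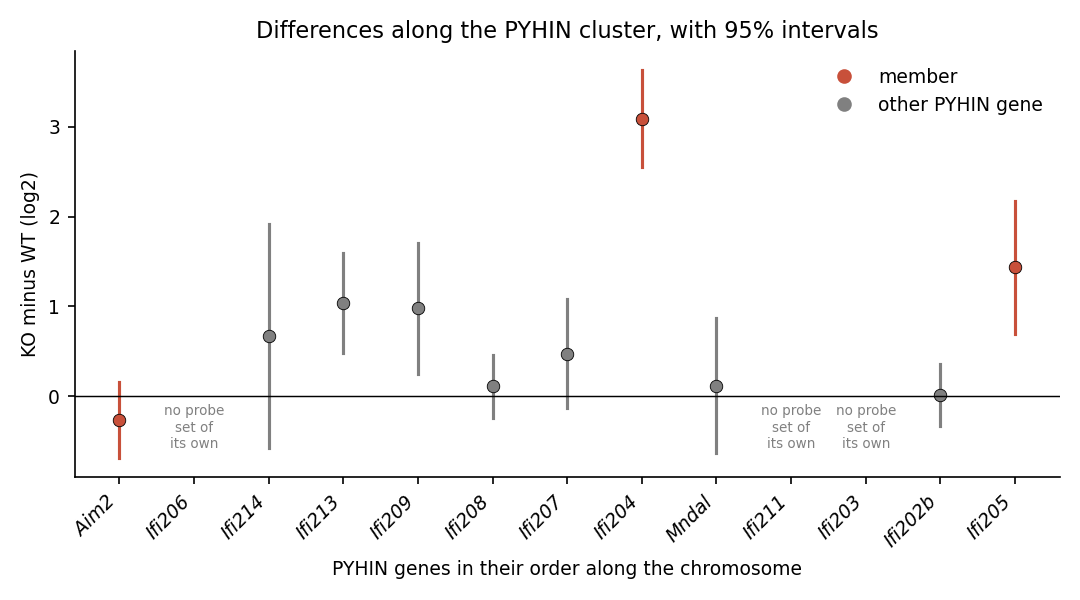
The KO minus WT difference (log2, points) with its 95% limma interval (bars) for the PYHIN genes, set in their order along the chromosome in the RefSeq table; Ifi206, Ifi211 and Ifi203 had no probe set of their own. Ifi204 stands at 3.09 between Ifi207 at 0.47 and Mndal at 0.12, and Aim2 and Ifi205 close the ends of the cluster at -0.26 and 1.44.

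Promoter sequences from RefSeq (build GRCm38.p6) are shown because PYHIN genes of the cluster with unequal differences share a stretch of sequence there. The 250 bases before each start were searched on both strands for the core of the interferon-stimulated response element (GAAA, any 2 bases, GAAA), for a STAT site core (TTC, any 3 bases, GAA) and for an NF-kB site (GGGAC followed directly by TTTCC). Matches to different motifs could overlap. The motifs were held by 2.98%, 7.02% and 0.14% of all 32851 promoters. Of the 10 members 6 had an entry under their own name, and 2 of these, Ifi205 and Ifi203, held the first core. Zbp1, Ifi204, Dhx58 and Mnda had no entry. No member with an entry held a match to the other 2 motifs. The window of Ifi205 runs over chr1:174031756-174032005 on the minus strand and ends at the base before the start, with the match in capitals.
Ifi205: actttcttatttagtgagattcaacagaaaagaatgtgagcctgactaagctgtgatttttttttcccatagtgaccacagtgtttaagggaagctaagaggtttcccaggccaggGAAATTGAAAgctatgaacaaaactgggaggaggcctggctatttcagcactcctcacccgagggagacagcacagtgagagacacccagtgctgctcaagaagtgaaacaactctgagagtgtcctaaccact

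Across the PYHIN cluster, 9 of 12 genes with a promoter entry held this core before a start. The 30 bases around it, with the core in capitals, are given for Ifi205 (chr1:174031870-174031899, minus), Ifi203 (chr1:173942508-173942537, minus), Ifi211 (chr1:173913064-173913093, minus), Ifi207 (chr1:173741831-173741860, minus), Ifi213 (chr1:173599326-173599355, minus) and Mndal (chr1:173880204-173880233, minus).
Ifi205: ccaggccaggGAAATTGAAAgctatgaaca
Ifi211: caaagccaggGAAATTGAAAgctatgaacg
Ifi207: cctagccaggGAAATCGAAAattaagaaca
Ifi203: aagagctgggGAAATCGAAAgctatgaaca
Mndal: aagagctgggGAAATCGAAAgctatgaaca
Ifi213: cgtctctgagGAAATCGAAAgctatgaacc

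Ifi211 shared 27 of these 30 positions with Ifi205, Ifi207 shared 24, Ifi203 and Mndal 23 each and Ifi213 21. Of the genes with the core that are not shown, Ifi208 shared 21, Ifi206 20 and Ifi214 18. The stretch was present in genes with and without a sizeable difference. The 6 measured PYHIN genes that held the core had differences from 0.11 for Ifi208 to 1.44 for Ifi205. The 3 measured genes with an entry and no match were Aim2 at -0.26, Ifi202b at 0.01 and Ifi209 at 0.98. A match describes the letters in this window and is neither a shown binding site nor a cause of a difference.

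Among the RNA sensors, Ifih1 (gene identifier 71586, probe set 17385797), which encodes MDA5, was at 7.29 and 7.59 in WT and at 8.28 and 8.33 in KO. The KO arrays agreed closely and lay above both WT arrays by 0.70. The difference of 0.87 ± 0.18 (SE), or 1.83-fold with a 95% interval of 1.36 to 2.46, passed the looser rule but not the adjusted threshold (limma adjusted p = 0.097). Fits that leave out 1 WT array take the spread from the 2 KO arrays alone and assume that the lone WT sample varies like them, and in them far more probe sets of the whole array pass. In these fits the difference was 0.72 without WT replicate 1 (limma adjusted p = 0.0235) and 1.02 without WT replicate 2 (limma adjusted p = 0.00805), in a range of adjusted p from 0.00805 to 0.728 over the alternatives. In a search of the whole window of 300 bases, added after the data were seen, Ifih1 held the core after its start (chr2:62646206-62646235, minus), where 3.44% of all promoters held it in that longer window.
Ifih1: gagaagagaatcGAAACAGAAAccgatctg

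Dhx58 (gene identifier 80861, probe set 17269595), which encodes LGP2, was at 6.49 and 6.54 in WT and at 7.36 and 7.23 in KO. The groups were 0.69 apart, several times the spread within either. The difference of 0.78 ± 0.17 (SE), or 1.72-fold with a 95% interval of 1.29 to 2.28, also passed only the looser rule (limma adjusted p = 0.11). In the fits with a lone WT array, whose spread comes from the KO arrays, the difference hardly moved, at 0.75 and 0.80, with limma adjusted p = 0.038 when WT replicate 1 was left out and 0.022 when WT replicate 2 was. Over the alternatives that p ran from 0.022 to 0.73. Ddx58, which encodes RIG-I, the third helicase of this family, was at 7.63 and 7.02 in WT and at 7.30 and 7.18 in KO, with overlapping groups (-0.09 ± 0.24, SE, limma adjusted p = 0.90). It was looked up for its kinship with these genes after the data were seen.

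Mavs (gene identifier 228607, probe set 17376480), the adaptor on which MDA5 and RIG-I converge, was at 5.84 and 5.73 in WT and at 5.47 and 5.60 in KO. Both KO arrays were lower, by a gap of 0.13, about the distance between the KO arrays themselves. The difference of -0.25 ± 0.18 (SE, limma adjusted p = 0.54) did not pass the test, with a 95% interval of -0.67 to 0.18. Tlr3 (gene identifier 142980, probe set 17509101), the endosomal sensor of double-stranded RNA, was at 4.04 and 4.16 in WT and at 4.13 on both KO arrays. Its groups overlapped, all 4 values lay below the median probe set, and the difference was 0.03 ± 0.17 (SE, limma adjusted p = 0.95, 95% interval -0.37 to 0.43). Without WT replicate 1 the difference of Tlr3 was -0.02.

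The pathway around the members was described with 3 further lists, ordered by role. Of 22 other RNA and DNA sensors, 0 rose and 0 fell past the limma threshold, with 3 higher and 0 lower by the looser rule and a median of -0.04. At an unadjusted p under 0.05, 5 were higher and 2 lower, where the shares of all genes were 10.4% and 6.95%. The lower count is near that share. Those of smallest p were Ifit1, which binds foreign RNA ends, at 1.63 ± 0.25, Oasl2, of the oligoadenylate synthetase family, at 1.07 ± 0.20, and Cgas, the cytosolic DNA sensor that makes cyclic GMP-AMP, at 0.88 ± 0.18 (SE, limma adjusted p = 0.0638, 0.0849 and 0.0915). Oas1g, an oligoadenylate synthetase, was at 0.49 ± 0.17 (SE, limma adjusted p = 0.21).

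Of 22 adaptors and kinases below the sensors, 1 rose and 0 fell, where 0.338% and 0.0902% of all genes with 1 probe set each did. It was Irf7, a transcription factor of the interferon response, which was at 7.19 and 7.04 in WT and at 8.51 and 8.33 in KO. Its groups were well apart, and it rose 2.48-fold (1.31 ± 0.17, SE, limma adjusted p = 0.0451). The median of this list was 0.17. At an unadjusted p under 0.05, 2 of its genes were higher and 0 were lower, no larger a share than the 10.4% and 6.95% of all genes. Of 19 regulators of sensing and nucleic acid clearance, 2 rose and 0 fell, with a median of 0.20. At an unadjusted p under 0.05, 6 were higher and 2 lower, against the same 10.4% and 6.95%. Isg15, a ubiquitin-like modifier, was at 6.77 and 6.70 in WT and at 8.34 and 8.74 in KO. Usp18, the protease that removes ISG15 from proteins, was at 6.94 and 7.02 in WT and at 8.63 and 8.53 in KO. Both genes had clearly separate groups, with rises of 3.49-fold and 3.03-fold (limma adjusted p = 0.027 and 0.023). Isg15, Ifit1 and Oas1g held the core of the interferon-stimulated response element before their starts, while Irf7, Oasl2, Cgas, Mlkl and Ripk3 did not. Usp18 had no promoter entry.

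Over the 4 lists, which hold 70 measured genes, 3 rose and 0 fell. With either KO array left out limma called 0 of these genes, and without WT replicate 1 it called 13 higher and 2 lower, where 6.45% and 1.37% of all genes were called. Without WT replicate 2 it called 14 higher and 9 lower, where 7.79% and 5.74% of all genes were called. With the replicate number as a block 2 of the 3 rises were called, and Irf7 was not (limma adjusted p = 0.0582).

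**Figure D3:**
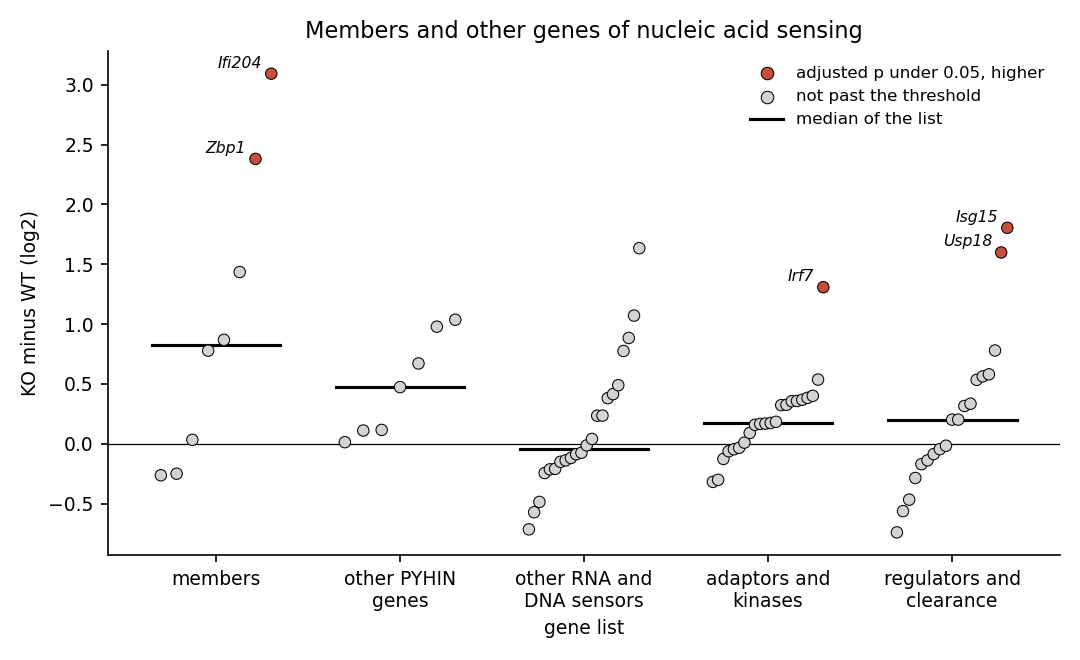
The KO minus WT difference (log2) of each measured gene in the members and in 4 lists of other nucleic acid sensing genes, with 1 point per gene, filled red where limma's adjusted p was under 0.05 and grey otherwise, and a line at each list's median. The medians run from -0.04 for other RNA and DNA sensors to 0.82 for the members, and the 5 genes that rose are named.

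The genes whose array pattern was most like that of Zbp1 and Ifi204 were found by the root mean square difference of values centred on each gene's mean over the 4 arrays. For Zbp1 the 3 nearest genes were Tspo2 at 0.056, Aqp1 at 0.059 and Slc26a1 at 0.085. Tspo2 and Aqp1 are genes of red cells. For Ifi204 they were Nxpe2 at 0.11, the interferon-induced GTPase gene Iigp1 at 0.14 and Car1, a carbonic anhydrase gene of erythroid progenitors, at 0.18. With 4 arrays in 2 groups this likeness mostly restates a difference of similar size.

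Some markers of other cells also differed between the groups in these sorted samples, in which fewer cells of a type and less RNA per cell cannot be told apart. Of 19 measured markers of macrophages and dendritic cells 2 rose and 0 fell. The risers were H2-Aa and H2-Eb1, which encode MHC class II chains. Before adjustment 4 of the 19 were higher and 1 was lower at a p under 0.05. Among the higher ones was Fcgr1, at 1.16 ± 0.18 (SE, limma adjusted p = 0.063). The log2 of that list's summed level was 10.2 to 10.3 in WT and 11.0 to 11.1 in KO. Bright genes such as H2-Ab1 dominate this sum. Without H2-Ab1 the summed level of the other 18 genes was 9.203 to 9.372 in WT and 9.887 to 9.965 in KO. The median difference of the 19 genes was 0.07. The macrophage marker Adgre1 was at 4.14 in both WT arrays and at 4.29 and 4.30 in KO, and Siglech, of plasmacytoid dendritic cells, was at 4.25 and 4.18 in WT and at 4.32 and 4.26 in KO, near the median probe set. Of 6 measured erythroid markers 3 rose and 0 fell. Those that rose were Ermap 15.6-fold, Rhag 12.7-fold and Klf1 5.46-fold (limma adjusted p = 0.0085, 0.0085 and 0.0388). Before adjustment 5 were higher at a p under 0.05 and 1 was lower, Slc4a1 of the red cell membrane at -0.96 ± 0.24 (SE). The summed level of the erythroid markers was 6.86 to 7.18 in WT and 9.22 to 9.30 in KO. Of 13 monocyte and neutrophil markers 0 rose and 0 fell in limma, while 6 had a p under 0.05 before adjustment in the higher and 1 in the lower direction, and their summed level was 13.2 to 13.3 in WT and 13.6 to 13.7 in KO. Of 13 lymphocyte markers 0 rose and 0 fell in limma, while before adjustment 2 were lower and 0 higher at a p under 0.05. Their summed level was 10.067 to 10.424 in WT and 10.573 to 10.645 in KO, a sum that the bright Nkg7 dominates. The summed level of the 12 other genes was 8.07 to 8.09 in WT and 8.17 to 8.18 in KO. The sort marker Kit and the early progenitor marker Cd34 were bright in both groups, with lower means in KO. Their means were 9.99 and 10.8 in WT and 9.38 and 10.1 in KO. Ly6a was not listed under its own probe set. Of 7 markers of LSK cells and early progenitors 0 rose and 0 fell in limma, while before adjustment 6 were lower and 0 higher at a p under 0.05. By the looser rule 5 were lower and 0 higher, where 2.21% of all genes were lower and 4.07% higher. These 5 were Flt3 at -1.21 ± 0.27, Hlf at -1.18 ± 0.18, Mecom at -0.87 ± 0.21, Meis1 at -0.84 ± 0.21 and Cd34 at -0.68 ± 0.13 (SE). The median difference of the 7 was -0.84. Over all genes 10.4% were higher and 6.95% lower at a p under 0.05 before adjustment. The part of these markers in the differences of the members was not tested.

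Results for the members rested unequally on single arrays, as the plot of differences under each processing choice shows. The KO arrays of a member differed by at most 0.13, except those of Ifi205, which differed by 0.41, and the WT arrays differed by up to 0.84. With either KO array left out limma called 0 of 23521 probe sets. At an unadjusted p under 0.05 there were then 1597 probe sets without KO replicate 1, 3 of them members, and 2065 without KO replicate 2, 4 of them members.

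**Figure D4:**
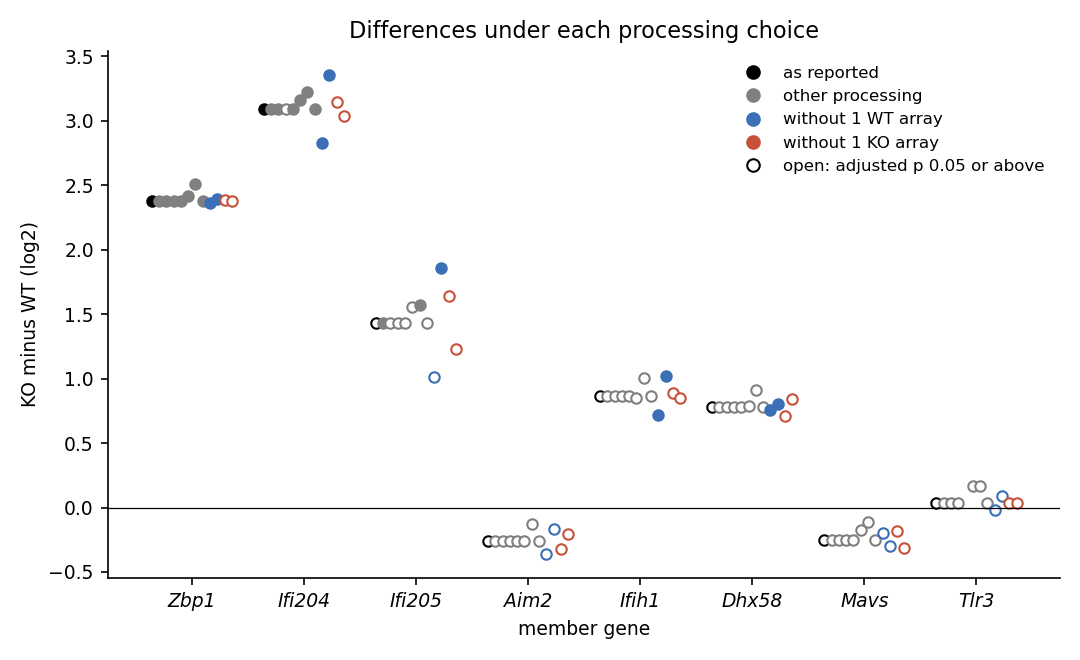
The KO minus WT difference (log2) of each member as reported (black) and under other processing (grey), without 1 WT array (blue) and without 1 KO array (red), with open points where limma's adjusted p was 0.05 or above. The differences of Zbp1 and Ifi204 stay between 2.36 and 3.36 throughout. Their points open when a KO array is left out, and that of Ifi204 also opens over all probe sets of the table.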

How the data were processed

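Log2 expression values of 41345 probe sets on 4 arrays were deposited by the authors as 1 table. Per the submitters' processing notes, RMA and Affymetrix Expression Console 1.2.1 were named, and their settings, any filter and the genome build are not given. The values lay between 0.375 and 12.8, the range of a log2 scale. The platform annotation listed 23521 probe sets with 1 gene symbol and 1814 with several, and 16010 were not listed. The single-gene probe sets were fitted in limma 3.58.1 under R 4.3.3, KO against WT, with empirical Bayes moderation, an intensity trend and two-sided p-values adjusted by Benjamini-Hochberg. No filter on dim probe sets was applied, and no detection call was used. For lists, each gene was taken by its brightest probe set.

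The members and lists were chosen with earlier results of these data known. The genes named were all members, the PYHIN genes of the cluster and the 3 of most similar pattern. From the other sensing lists came genes past the threshold (or up to 4 of smallest p). Ncoa3 and those said to be chosen later were added. Of the marker genes named, Kit, Ly6a, Cd34, Adgre1, Itgax, Siglech and S100a8 were planned as defining markers, and the others were not. Alternatives were a replicate block, other probe set choices, normalizations and variance models, and each array left out. A planned comparison of protein sequences was not made. Precision is limited by 2 arrays a group.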

Additional observations from a re-analysis of the deposited data

Results flagged for a closer look

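A probe set listed for Ifi204 together with Ifi211, left out of the comparisons because its signal cannot be assigned to 1 gene, was higher on both KO arrays than on both WT arrays. It was at 7.62 and 8.55 in WT and at 10.18 and 10.20 in KO, a difference of 2.11 ± 0.32 (SE) that did not pass the test over all 41345 probe sets of the table (limma adjusted p = 0.105). The probe set that lists Ifi203 together with other genes was at 6.14 and 6.27 in WT and at 6.02 and 5.95 in KO, a difference of -0.22 ± 0.18 (SE, limma adjusted p = 0.61). Whether either value reflects the member was not tested.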

How the results depend on the processing

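The 8 members kept the direction of their difference under the alternatives run, with 1 exception. Tlr3 was at -0.022 without WT replicate 1, and with each array left out it ran from -0.022 to 0.089. Over all probe sets of the table, of which 7 were higher and 1 lower among the single-gene ones, 1 member (Zbp1) and 0 other sensing genes rose. Among probe sets at or above the median level 186 were higher and 76 lower, after quantile normalization 118 and 42, and with arrays centred on their medians 294 and 43, with 5 other sensing genes that rose. The dimmer Tlr3 has no value among probe sets at or above the median level. These compare with 76 higher and 21 lower as reported. Centring moved the median of all probe sets by 0.13, Aim2 and Mavs remained below 0 under it, and Ifi205 passed the threshold (limma adjusted p = 0.0432). With each array left out in turn, 0 to 1830 probe sets were higher and 0 to 1293 lower, 0 to 5 members rose, 2 to 5 members were higher by the looser rule, and among other sensing genes 0 to 14 rose and 0 to 9 fell.

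With the replicate number as a block 81 probe sets were higher and 26 lower, 3 members rose, and Ifi205 was the added one (limma adjusted p = 0.0423), while Irf7 lost its call (limma adjusted p = 0.0582). Nothing in the labels ties samples of one number, and the deviations of WT and KO replicate 1 correlated at 0.11 across probe sets. The search for motifs in the longer promoter window added the match of Ifih1 and a further match of the core in Ifi205. The latter lay after the start, on the opposite strand.

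Arrays give no count of molecules. Tlr3 and the WT values of Ifi204 and Ifi205 lay below the median probe set.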
